A study of Mus musculus with 12 samples.

Results

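The genes described here are 52 genes of the machine that copies DNA, chosen by symbol from a fixed list that covers the licensing of replication origins, the replicative helicase, the DNA polymerases and primase, the sliding clamp with its loader and the single-strand binding protein, the processing of Okazaki fragments, the supply of deoxynucleotides and the upkeep of DNA methylation. This list was drawn up with earlier results of these data known, and the paper had already named DNA replication as the top pathway among its changed genes in both cell types. All 52 symbols were found among the 46983 genes of the deposited table, and all 52 passed the filter on low values that left 18023 genes for testing. The cells were C2C12, a mouse myoblast line. The WT cells, of wild type genotype, were the group of the PiggyBac vector PB-IP, and the PPARγ/+ cells were stably transfected with the same vector carrying the coding sequence of PPARγ, a nuclear receptor known as the main regulator of fat cell formation. Cells were harvested on 0d, before differentiation, and on 5d, after 5 days of it, which gives the 4 groups WT_0d, WT_5d, PPARγ/+_0d and PPARγ/+_5d with 3 libraries each and 12 in all. The methods name a growth medium and no separate differentiation medium. The PPARγ/+ cells were selected with puromycin for positive clones, whose number is not stated, and whether the WT cells were selected too is not stated either. The abstract of the paper calls the overexpression inducible, while its methods describe no inducer. The study calls the replicates biological, and its methods do not say whether they came from separate cultures. Each p-value thus sets a difference against the spread between these libraries.

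Before S phase the origin recognition complex, with Cdc6 and Cdt1, loads the Mcm2 to Mcm7 ring onto origins, a step known as licensing. In S phase Cdc45 and the GINS complex join the ring to form the moving helicase, polymerase α with primase starts each strand, and polymerases δ and ε extend it on the clamp PCNA while ribonucleotide reductase, thymidylate synthase and thymidine kinase keep up the supply of deoxynucleotides. Myoblasts that differentiate leave the cell cycle for good before they fuse into myotubes, and genes for this machinery are known targets of the E2F factors, which the retinoblastoma protein holds in check in resting cells.

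The measure was FPKM, the fragments per kilobase of a gene scaled to the mapped fragments of its library. Levels can thus be set side by side between genes, with less certainty where exons are shared with a neighbouring gene. Between 15557931 and 22013330 fragments fell on genes in each library, as recovered from the FPKM values. Pparg was read at 7.56, 5.10 and 6.92 FPKM in WT_0d, 3.12, 3.53 and 4.59 in WT_5d, 44.4, 28.0 and 46.4 in PPARγ/+_0d and 40.1, 44.1 and 92.7 in PPARγ/+_5d, so every PPARγ/+ library lay above every WT library. The summed FPKM of 6 myotube markers (Myog, Myh3, Acta1, Ckm, Tnnt3 and Mymk) was 7.20 to 102.9 on 0d and 896 to 3973 on 5d, and all 6 rose in both cell types. WT_5d replicate 3 stood apart from its group with a myotube sum of 896 against 3045 and 3973, and WT_0d replicate 2 had 102.9 against 9.88 and 15.1. The myoblast markers Myod1 and Des were read in all 12 libraries (at least 5.03 and 45.5 FPKM). The 5d mean of Myod1 was 233% of its 0d mean in WT cells and 296% in PPARγ/+ cells, and that of Des 275% and 420%. The myoblast marker Pax7 stood at 148% and 108%, while Myf5 fell to 36.8% in WT cells and stood at 171% in PPARγ/+ cells. The sum of 6 adipocyte markers was 0.0345 to 0.0794 FPKM in the WT libraries, 2.90 to 5.04 in PPARγ/+_0d and 13.3 to 67.2 in PPARγ/+_5d, with Lep at 0 in all 12. Of 4 leukocyte markers, Cd68 was read in every library, at up to 5.09 FPKM, while Ptprc, Itgam and Adgre1 stayed at or under 0.0309 FPKM, and 4 endothelial markers summed to at most 0.233 FPKM.

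All 52 replication genes had a lower mean on 5d than on 0d in both cell types, as did 55.5% of all genes tested in WT cells and 56.6% in PPARγ/+ cells. In WT cells 43 of 52 fell by at least 2-fold at an unadjusted p ≤ 0.05, the thresholds of the study, against 7.53% of all genes tested, and 0 rose, against 8.94%. In PPARγ/+ cells 40 of 52 fell, against 6.06% of all genes, and 0 rose, against 9.11%. The median member changed by -1.92 on the log2 scale in WT cells, where the median of all genes tested was -0.08, and by -1.43 in PPARγ/+ cells, where it was -0.10. Log2 changes are of FPKM + 0.1, are given with their standard error, and come from limma with Benjamini-Hochberg adjustment over all genes tested.

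**Figure D1:**
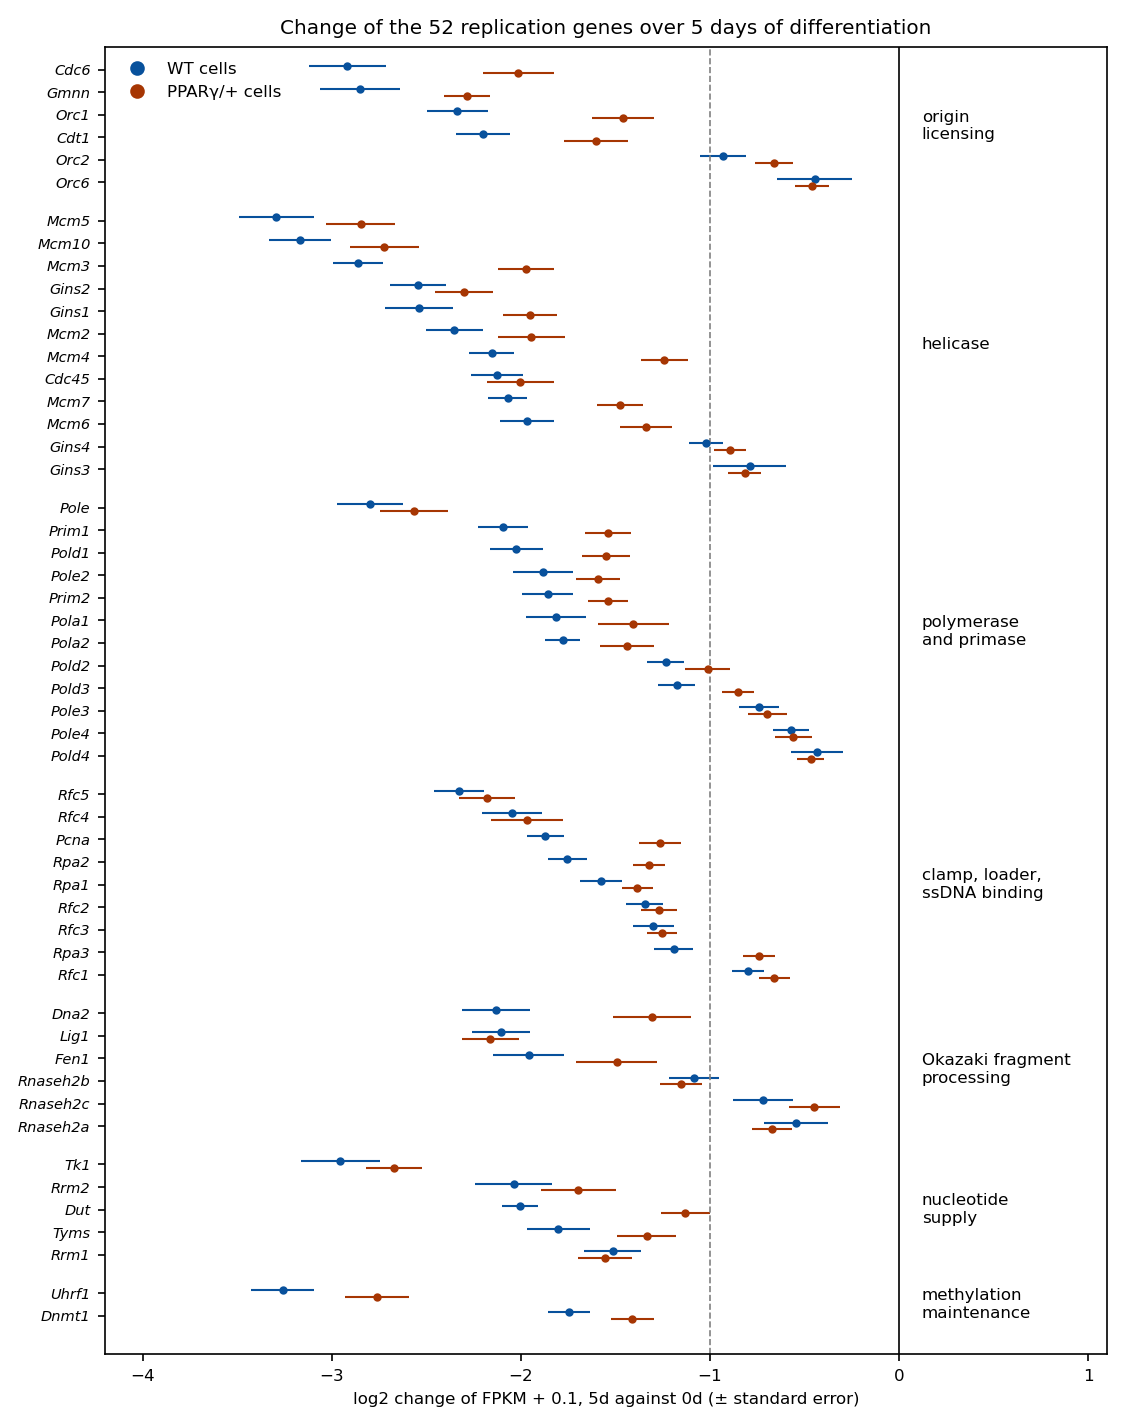
Log2 change of FPKM + 0.1 from 0d to 5d (horizontal axis) for each of the 52 replication genes (vertical axis, grouped by role), in WT cells (blue) and PPARγ/+ cells (brown), with bars for the standard error and a dashed line at a 2-fold fall. Every point lies left of 0, from -3.29 for Mcm5 to -0.43 for Pold4 in WT cells.

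With the adjusted p held to 0.05 and no limit on the fold, 51 members were lower in WT cells, against 23.0% of all genes, and 52 in PPARγ/+ cells, against 28.8%. The 3 libraries of 5d lay below the 3 of 0d without overlap for 51 members in WT cells, against 30.9% of all genes, and for 52 in PPARγ/+ cells, against 34.4%. The exception in WT cells was Orc6. The mean FPKM left on 5d ranged from 9.22% to 74.6% of the 0d mean in WT cells, with a median of 25.6%, and from 12.6% to 72.3% in PPARγ/+ cells, with a median of 35.4%. A fall of at least 4-fold was seen for 24 members in WT cells and 11 in PPARγ/+ cells, and of at least 8-fold for 3 (Mcm5, Uhrf1 and Mcm10) and 0. No share of all genes was taken at these folds, so these counts describe the members only. Without WT_5d replicate 3, the library that stood apart, the count of falls in WT cells was again 43. In bulk RNA, fewer cells in cycle and less RNA of these genes in each cell cannot be told apart.

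The promoters of 6 members are shown as the sequence next to these changes. Of these, 4 had the largest falls in WT cells among members with an E2F match. Mcm10 fell about as much and holds no complete match inside its window, and Pold4 had the smallest fall in WT cells. Each is the window of 250 bases before to 50 bases after a start listed by RefSeq on GRCm38.p6. It is printed 5′ to 3′ on the strand of the gene, with E2F matches in capitals. The gene starts of Cdc6 (chr11:98907801) and Uhrf1 (chr17:56303321) in the GENCODE annotation lie before their windows. The windows on the plus strand are chr8:75109259-75109558 (Mcm5), chr17:56304063-56304362 (Uhrf1), chr11:98907901-98908200 (Cdc6) and chr19:4231643-4231942 (Pold4). Those on the minus strand are chr1:20820263-20820562 (Mcm3) and chr2:5012742-5013041 (Mcm10). Of the 2 promoters listed for Uhrf1, the window printed was picked by its number of E2F matches.
Mcm5: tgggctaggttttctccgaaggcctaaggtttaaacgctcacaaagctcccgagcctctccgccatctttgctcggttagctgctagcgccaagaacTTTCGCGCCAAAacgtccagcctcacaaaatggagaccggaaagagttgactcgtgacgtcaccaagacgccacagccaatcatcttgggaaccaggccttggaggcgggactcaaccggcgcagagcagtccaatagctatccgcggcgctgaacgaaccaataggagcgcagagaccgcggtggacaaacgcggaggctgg
Uhrf1: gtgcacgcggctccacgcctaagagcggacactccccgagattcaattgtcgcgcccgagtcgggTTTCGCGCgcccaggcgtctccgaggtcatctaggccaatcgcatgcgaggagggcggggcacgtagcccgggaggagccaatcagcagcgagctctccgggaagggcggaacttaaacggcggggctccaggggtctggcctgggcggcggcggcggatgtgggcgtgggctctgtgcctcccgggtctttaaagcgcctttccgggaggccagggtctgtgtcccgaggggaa
Cdc6: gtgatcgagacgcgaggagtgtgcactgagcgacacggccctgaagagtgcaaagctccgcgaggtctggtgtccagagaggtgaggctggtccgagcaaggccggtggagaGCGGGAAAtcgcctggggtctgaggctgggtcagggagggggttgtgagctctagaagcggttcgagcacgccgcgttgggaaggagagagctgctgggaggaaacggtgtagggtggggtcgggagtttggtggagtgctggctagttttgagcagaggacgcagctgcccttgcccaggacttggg
Mcm3: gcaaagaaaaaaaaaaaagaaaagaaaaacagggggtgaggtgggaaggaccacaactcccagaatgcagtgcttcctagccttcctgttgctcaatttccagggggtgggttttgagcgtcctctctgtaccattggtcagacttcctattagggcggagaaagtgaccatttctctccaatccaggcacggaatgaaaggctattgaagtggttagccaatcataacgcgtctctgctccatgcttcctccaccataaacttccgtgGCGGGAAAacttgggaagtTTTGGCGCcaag
Mcm10: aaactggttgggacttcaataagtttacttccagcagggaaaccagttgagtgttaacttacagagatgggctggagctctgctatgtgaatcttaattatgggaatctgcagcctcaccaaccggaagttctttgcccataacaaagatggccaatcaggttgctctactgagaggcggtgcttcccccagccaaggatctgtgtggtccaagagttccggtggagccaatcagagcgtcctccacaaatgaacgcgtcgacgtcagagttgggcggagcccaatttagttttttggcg
Pold4: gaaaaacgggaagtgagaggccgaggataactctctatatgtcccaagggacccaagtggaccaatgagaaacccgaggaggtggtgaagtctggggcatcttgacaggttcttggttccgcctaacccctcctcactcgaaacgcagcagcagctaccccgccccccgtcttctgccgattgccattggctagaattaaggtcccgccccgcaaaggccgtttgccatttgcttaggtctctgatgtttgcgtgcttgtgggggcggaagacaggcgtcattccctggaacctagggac

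The E2F letters searched, on both strands, were TTTCCCGC, TTTGGCGC, TTTCGCGC and TTTGCCGC. The capitals of Mcm5 hold 2 matches that overlap, which begin at -153 and -149 relative to the RefSeq start. The others begin at -185 in Uhrf1, at -138 in Cdc6 and at 20 and 39 in Mcm3. A promoter was listed for 43 of the 52 members and for 27025 genes in all. An E2F match stood in 17 of the 43 (39.5%) and in 704 of the 27025 (2.60%). The letters CCAAT, on both strands, stood in 26 of the 43 (60.5%) and in 41.1% of all, and TTTGAA in 7 of the 43 (16.3%) and in 20.2% of all. By size of the fall in WT cells, 9 of 19 members at least 4-fold lower held an E2F match, 6 of 15 from 2-fold to 4-fold lower, and 2 of 9 short of 2-fold. Both of the last kind, Gins3 and Pole4, held the letters and changed by -0.79 and -0.57. Mcm10, with no complete match inside its window, changed by -3.17. The window of Mcm10 ends in TTTGGCG, which is TTTGGCGC short of its last letter, so a match across that edge could not be scored. A match of letters is a description of the window, and neither binding nor the factor was measured.

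Of the 6 licensing genes, 4 fell in both cell types: Cdc6, Gmnn, Orc1 and Cdt1. Cdc6, the ATPase that joins the origin recognition complex to load the helicase, was read at 4.34, 5.10 and 7.10 FPKM in WT_0d and 0.683, 0.614 and 0.588 in WT_5d. In PPARγ/+ cells it was read at 3.34, 2.22 and 2.36 FPKM on 0d and 0.636, 0.498 and 0.576 on 5d. Both days were apart in both cell types, and the PPARγ/+ libraries began from a lower level and ended close to the WT libraries. The log2 change was -2.92 ± 0.20 (adjusted p = 2.97e-04) in WT cells and -2.01 ± 0.19 (adjusted p = 2.63e-04) in PPARγ/+ cells. The mean left on 5d was 11.4% and 21.6%.

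Orc1, the large ATPase subunit of the origin recognition complex and the subunit known to cycle with S phase, was read at 2.43, 2.50 and 2.93 FPKM in WT_0d and 0.406, 0.477 and 0.429 in WT_5d, and at 1.78, 1.37 and 1.50 in PPARγ/+_0d and 0.554, 0.428 and 0.510 in PPARγ/+_5d. Its log2 change was -2.34 ± 0.16 (adjusted p = 2.70e-04) in WT cells and -1.46 ± 0.16 (adjusted p = 5.42e-04) in PPARγ/+ cells. Exons of Orc1 share 376 bases with Gm12743, those of Orc2 share 1150 with Nif3l1, and those of Orc6 share 171 with Vps35, which was read at a mean of 138 FPKM, so their levels carry that uncertainty. The other measured subunits of the complex changed less. Orc2, a core subunit, went from 8.59 ± 0.882 to 4.46 ± 0.473 FPKM (mean ± SD, n = 3 libraries, as in all such pairs here) in WT cells and from 7.17 ± 0.598 to 4.49 ± 0.447 in PPARγ/+ cells. It was lower in both at the adjusted p, with log2 changes of -0.93 and -0.66, and short of 2-fold.

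Orc6, the smallest subunit of the complex, was the member that did not pass the test in WT cells. It was read at 42.8, 47.9 and 57.2 FPKM in WT_0d and 28.1, 35.8 and 46.2 in WT_5d, where the highest 5d library lay above the lowest 0d library, and the log2 change was -0.45 ± 0.20 (adjusted p = 0.127). In PPARγ/+ cells it was read at 77.5, 64.4 and 62.4 on 0d and 48.8, 51.6 and 47.3 on 5d, without overlap and with a log2 change of -0.46 ± 0.09 (adjusted p = 0.00579). The ratio of Orc1 to Orc6 within a library, looked at after the values were seen, was 0.0534 ± 0.00301 in WT_0d and 0.0124 ± 0.00272 in WT_5d, and 0.0227 ± 0.00143 and 0.0101 ± 0.00163 in PPARγ/+ cells. The level of Orc6 thus stood far above that of Orc1 on both days in both cell types, and the ratio was lower on 5d.

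Cdt1 loads the helicase, and geminin, the product of Gmnn, binds Cdt1 and keeps it from doing so again in the same cycle. Gmnn was read at 12.8, 15.9 and 18.5 FPKM in WT_0d and 2.73, 1.70 and 1.89 in WT_5d, and at 12.3, 9.42 and 9.63 in PPARγ/+_0d and 1.91, 2.03 and 2.20 in PPARγ/+_5d. It fell by the larger step of the pair, with log2 changes of -2.85 ± 0.21 (adjusted p = 3.48e-04) in WT cells and -2.29 ± 0.12 (adjusted p = 3.68e-05) in PPARγ/+ cells. Cdt1 went from 24.2 ± 2.62 to 5.21 ± 0.876 FPKM in WT cells and from 16.5 ± 4.17 to 5.27 ± 0.406 in PPARγ/+ cells, with log2 changes of -2.20 and -1.60. The ratio of Cdt1 to Gmnn within a library was 1.76, 1.44 and 1.47 in WT_0d and 1.61, 3.01 and 3.25 in WT_5d, where the days overlap, and 1.72, 1.41 and 1.56 in PPARγ/+_0d and 2.54, 2.61 and 2.57 in PPARγ/+_5d, where they do not.

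Of the 12 helicase genes, 11 fell in WT cells and 10 in PPARγ/+ cells, with median log2 changes of -2.25 and -1.95. Mcm5, a subunit of the ring, had the largest fall of all members in both cell types on the scale of log2(FPKM + 0.1), while by the share of the mean FPKM left Mcm10 fell more, with 9.22% against 10.0% in WT and 12.6% against 13.2% in PPARγ/+ cells. It was read at 32.3, 36.6 and 46.8 FPKM in WT_0d and 4.21, 4.44 and 2.93 in WT_5d, and at 33.3, 20.0 and 22.7 in PPARγ/+_0d and 3.17, 3.28 and 3.60 in PPARγ/+_5d. The 5d libraries lay far below the 0d libraries in both cell types, and the log2 change was -3.29 ± 0.20 (adjusted p = 2.24e-04) in WT cells and -2.85 ± 0.18 (adjusted p = 6.86e-05) in PPARγ/+ cells. Mcm10, which helps to activate the loaded helicase, was a low gene from the start, at 4.30, 4.44 and 5.09 FPKM in WT_0d and 0.470, 0.458 and 0.348 in WT_5d. The 5d values of Mcm10 rest on 61 to 92 fragments per library. In PPARγ/+ cells it was read at 4.24, 2.94 and 3.27 and 0.420, 0.520 and 0.378, and the log2 changes were -3.17 ± 0.16 (adjusted p = 1.74e-04) and -2.72 ± 0.18 (adjusted p = 7.73e-05).

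Mcm2 to Mcm7 are the 6 subunits of the ring, which holds each of them in equal number. Their summed FPKM was 205 ± 33.5 in WT_0d and 38.1 ± 1.27 in WT_5d, and 136 ± 28.9 in PPARγ/+_0d and 40.7 ± 1.95 in PPARγ/+_5d. All 6 fell in both cell types, by unequal steps. Mcm3 changed by -2.86 ± 0.13 in WT and -1.98 ± 0.15 in PPARγ/+ cells, Mcm2 by -2.35 ± 0.15 and -1.94 ± 0.18, Mcm7 by -2.07 ± 0.10 and -1.48 ± 0.12, and Mcm6 by -1.97 ± 0.14 and -1.34 ± 0.14. Mcm4 was read at 32.8, 38.3 and 43.4 FPKM in WT_0d, 8.16, 8.04 and 9.11 in WT_5d, 28.1, 19.7 and 23.7 in PPARγ/+_0d and 9.42, 10.1 and 10.3 in PPARγ/+_5d, with log2 changes of -2.16 ± 0.12 (adjusted p = 1.91e-04) and -1.24 ± 0.13 (adjusted p = 3.54e-04). The makeup of the sum, a description made after the values were seen, shifted with the day in both cell types. Mcm5 took 18.7 ± 0.714% of the sum in WT_0d and 10.1 ± 1.87% in WT_5d, and 18.5 ± 1.15% and 8.22 ± 0.263% in PPARγ/+ cells. Mcm6 went the other way, from 18.0 ± 1.05% to 24.3 ± 0.408% in WT cells and from 18.6 ± 0.160% to 24.1 ± 0.640% in PPARγ/+ cells. The share of Mcm2 was 9.91 ± 0.358% and 10.1 ± 0.317% in WT cells and 9.67 ± 0.412% and 8.08 ± 0.399% in PPARγ/+ cells.

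**Figure D2:**
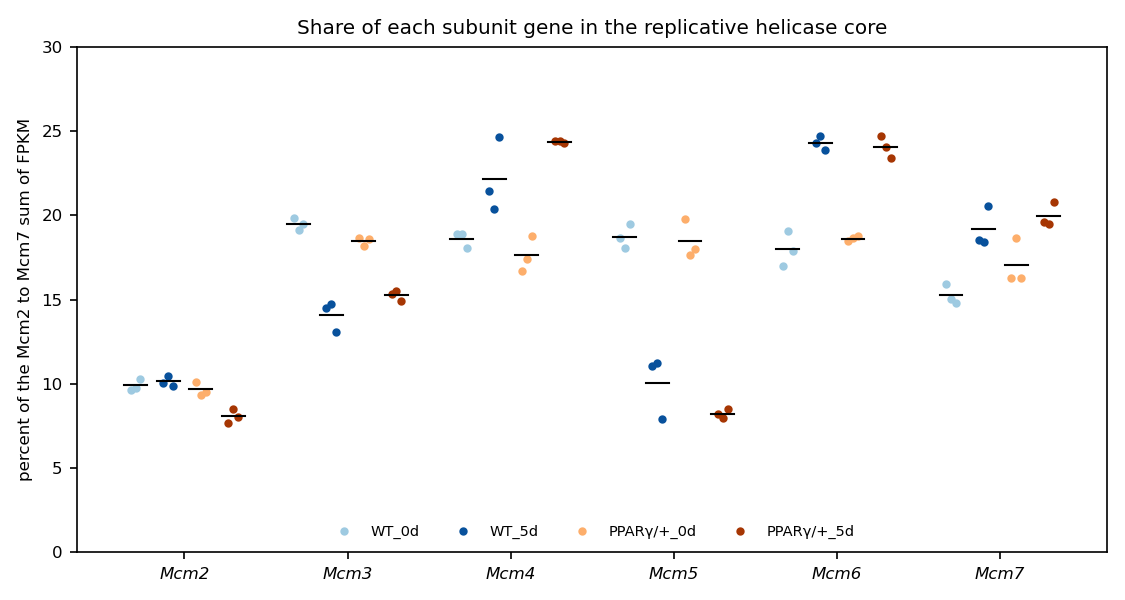
Percent of the summed FPKM of Mcm2 to Mcm7 (vertical axis) taken by each of the 6 subunit genes (horizontal axis), with a point for each library in the 4 groups and a black line at each group mean. Mcm3 and Mcm5 take less of the sum on 5d and Mcm4, Mcm6 and Mcm7 take more in both cell types, while Mcm2 is at 9.91% and 10.1% in WT cells.

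Cdc45 and the 4 GINS subunits turn the ring into the moving helicase. Cdc45 went from 19.9 ± 3.08 to 4.46 ± 0.431 FPKM in WT cells and from 12.9 ± 2.44 to 3.14 ± 0.606 in PPARγ/+ cells, with log2 changes of -2.13 and -2.00. The GINS subunits, which form a complex of equal parts, did not move alike. Gins1 changed by -2.54 ± 0.18 in WT and -1.95 ± 0.14 in PPARγ/+ cells and Gins2 by -2.55 ± 0.15 and -2.30 ± 0.15. Gins4 changed by -1.02 ± 0.09 and -0.90 ± 0.08, and so passed 2-fold in WT cells alone, while a test of the difference between the cell types gave 0.13 ± 0.13 (adjusted p = 0.754). Gins3 was read at 6.69, 7.89 and 9.90 FPKM in WT_0d and 5.47, 4.79 and 3.75 in WT_5d, with a log2 change of -0.79 ± 0.19 (adjusted p = 0.0204), and changed by -0.82 ± 0.09 (adjusted p = 4.59e-04) in PPARγ/+ cells. Of the exonic length of Gins2, 2758 of 4097 bases are shared with Gse1, so its level is uncertain.

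Of the 12 polymerase and primase genes, 9 fell in WT cells and 8 in PPARγ/+ cells, with median log2 changes of -1.80 and -1.42. In WT cells Pole, Prim1 and Pold1, all catalytic subunits, fell most. Pole, of polymerase ε, which copies the leading strand, was read at 5.30, 6.91 and 7.42 FPKM in WT_0d and 0.992, 0.775 and 0.787 in WT_5d, and at 6.38, 4.01 and 5.32 in PPARγ/+_0d and 0.821, 0.838 and 0.709 in PPARγ/+_5d. The days were far apart in both cell types, with log2 changes of -2.80 ± 0.18 (adjusted p = 2.32e-04) and -2.56 ± 0.18 (adjusted p = 9.22e-05). Pold1, the catalytic subunit of polymerase δ, which copies the lagging strand, changed by -2.03 ± 0.14 and -1.55 ± 0.13. Pola1, the catalytic subunit of polymerase α, changed by -1.82 ± 0.16 and -1.41 ± 0.19, its partner Pola2 by -1.78 ± 0.09 and -1.44 ± 0.14, the catalytic primase subunit Prim1 by -2.09 ± 0.13 and -1.54 ± 0.12, and the large primase subunit Prim2 by -1.86 ± 0.14 and -1.54 ± 0.11.

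The accessory subunits were spread from falls of the same order to the smallest of all members. Pole2, the B subunit of polymerase ε, changed by -1.88 ± 0.16 in WT and -1.59 ± 0.12 in PPARγ/+ cells, and the polymerase δ subunits Pold2 and Pold3 by -1.24 ± 0.10 and -1.18 ± 0.10 in WT and -1.01 ± 0.12 and -0.85 ± 0.08 in PPARγ/+ cells. Pole3 and Pole4 are small histone-fold subunits, and Pole3 is also part of a chromatin remodelling complex. Pole3 was read at 26.8, 32.4 and 30.1 FPKM in WT_0d and 16.4, 19.7 and 17.3 in WT_5d, a log2 change of -0.74 ± 0.11 (adjusted p = 0.00285), and Pole4 changed by -0.57 ± 0.10 (adjusted p = 0.00529). Pold4, the smallest subunit of polymerase δ, was read at 73.0, 62.3 and 72.1 FPKM in WT_0d and 56.1, 56.3 and 42.2 in WT_5d, and at 66.2, 72.5 and 62.0 in PPARγ/+_0d and 46.9, 47.4 and 50.5 in PPARγ/+_5d. Its log2 change was the smallest of all members in WT cells, at -0.43 ± 0.14 (adjusted p = 0.0494), and -0.47 ± 0.07 (adjusted p = 0.00185) in PPARγ/+ cells. Exons of Pold4 share 286 bases with AC109138.7. The ratio of Pole to Pole3 within a library was 0.219 ± 0.0249 in WT_0d and 0.0485 ± 0.0109 in WT_5d, and 0.172 ± 0.0263 and 0.0426 ± 0.00547 in PPARγ/+ cells, so the catalytic subunit lost ground to the small one. The ratio of Pold1 to Pold4 did likewise, from 0.144 ± 0.0230 to 0.0461 ± 0.00745 in WT cells and from 0.113 ± 0.0201 to 0.0516 ± 0.00439 in PPARγ/+ cells. Both ratios were chosen after the values were seen.

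Of the 9 genes of the clamp, its loader and the single-strand binding protein RPA, 8 fell in WT cells and 7 in PPARγ/+ cells, with median log2 changes of -1.58 and -1.27. Pcna, the clamp, was read at 55.8, 66.0 and 70.4 FPKM in WT_0d and 18.0, 17.1 and 17.0 in WT_5d, and at 44.0, 32.3 and 38.5 in PPARγ/+_0d and 15.4, 15.6 and 16.2 in PPARγ/+_5d. It kept 27.1% of its 0d mean in WT cells and 41.1% in PPARγ/+ cells, with log2 changes of -1.87 ± 0.10 (adjusted p = 1.77e-04) and -1.26 ± 0.11 (adjusted p = 1.97e-04). The mouse annotation lists Pcna-ps1 and Pcna-ps2, pseudogenes that may share reads with it. Among the 5 subunits of the loader, Rfc5 fell most and Rfc1 least. Rfc5 was read at 7.63, 9.35 and 9.87 FPKM in WT_0d and 1.58, 1.84 and 1.66 in WT_5d, with log2 changes of -2.33 ± 0.13 (adjusted p = 2.05e-04) in WT and -2.18 ± 0.15 (adjusted p = 8.07e-05) in PPARγ/+ cells. Rfc1, the large subunit that opens the clamp, was read at 14.0, 13.8 and 15.2 FPKM in WT_0d and 7.80, 7.94 and 8.91 in WT_5d, with log2 changes of -0.80 ± 0.09 (adjusted p = 0.00105) and -0.66 ± 0.08 (adjusted p = 8.26e-04).

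The remaining loader subunits lay between these, with log2 changes in WT and PPARγ/+ cells of -2.05 and -1.97 for Rfc4, -1.35 and -1.27 for Rfc2 and -1.30 and -1.25 for Rfc3. Exons of Rfc2 share 952 bases with Lat2, those of Rfc5 share 499 with Wsb2, and those of Rfc4 share 194 with Eif4a2, which was read at a mean of 62.9 FPKM. The RPA subunits, which coat single-stranded DNA in equal parts, changed by -1.58 ± 0.11 and -1.38 ± 0.08 (Rpa1), -1.76 ± 0.10 and -1.32 ± 0.08 (Rpa2), and -1.19 ± 0.10 and -0.74 ± 0.08 (Rpa3). Rpa3 fell short of 2-fold in PPARγ/+ cells, where 59.4% of its 0d mean was left against 43.2% in WT cells, and the test of that difference gave 0.45 ± 0.13 (adjusted p = 0.186).

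Of the 6 genes that process Okazaki fragments, the short pieces of the lagging strand, 4 fell in both cell types. Lig1, the ligase that joins the fragments, went from 24.7 ± 4.89 to 5.58 ± 0.405 FPKM in WT cells and from 19.2 ± 4.02 to 4.16 ± 0.339 in PPARγ/+ cells, with log2 changes of -2.11 ± 0.15 and -2.16 ± 0.15. Dna2, a nuclease and helicase that trims long flaps, was read at 2.43, 2.31 and 2.75 FPKM in WT_0d and 0.561, 0.529 and 0.396 in WT_5d, and at 1.62, 1.01 and 1.25 in PPARγ/+_0d and 0.386, 0.498 and 0.485 in PPARγ/+_5d. Its log2 change was the largest of this role in WT cells, at -2.13 ± 0.18 (adjusted p = 4.94e-04), and -1.31 ± 0.21 (adjusted p = 0.00229) in PPARγ/+ cells. Fen1, the flap nuclease, stood at only 1.03 ± 0.0784 FPKM in WT_0d and 0.192 ± 0.0268 in WT_5d, the lowest level of all members. Of its exonic length, 1909 of 2422 bases are shared with Gm10143 on the other strand, and its 5d values in WT cells rest on 10 to 11 fragments per library, so its level is uncertain and its log2 changes of -1.96 and -1.49 fell short of 2-fold when 1 was added to the FPKM.

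The 3 subunits of ribonuclease H2, which removes ribonucleotides from DNA, form a complex of equal parts. Rnaseh2b fell, from 4.18 ± 0.435 to 1.91 ± 0.178 FPKM in WT cells, and its log2 change was -1.09 ± 0.13 there and -1.15 ± 0.11 in PPARγ/+ cells. The catalytic subunit Rnaseh2a was read at 16.1, 17.3 and 19.0 FPKM in WT_0d and 9.35, 12.4 and 14.6 in WT_5d, with the smallest log2 change of this role in WT cells, -0.54 ± 0.17 (adjusted p = 0.0449), and -0.67 ± 0.10 (adjusted p = 0.00213) in PPARγ/+ cells. Rnaseh2c changed by -0.72 ± 0.16 (adjusted p = 0.0145) and -0.45 ± 0.13 (adjusted p = 0.0313). Both were lower in both cell types and short of 2-fold. Exons of Rnaseh2c share 426 bases with Kat5. Among the members not yet named for this, overlaps of 44 to 339 bases touch Rpa1, Rnaseh2b, Pole, Tk1, Cdc45, Pole2, Lig1, Mcm7 and Rnaseh2a.

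All 5 genes of nucleotide supply fell in both cell types. Tk1, the cytosolic thymidine kinase of S phase, was read at 13.5, 18.6 and 21.2 FPKM in WT_0d and 2.70, 2.03 and 1.85 in WT_5d, and at 16.2, 11.6 and 12.7 in PPARγ/+_0d and 1.86, 1.91 and 2.30 in PPARγ/+_5d. It was the largest fall of this role, with log2 changes of -2.96 ± 0.21 (adjusted p = 3.11e-04) and -2.67 ± 0.15 (adjusted p = 4.01e-05). Rrm2, the small subunit of ribonucleotide reductase, was the highest member on 0d, at 86.3, 124 and 116 FPKM in WT_0d and 167, 93.4 and 117 in PPARγ/+_0d. On 5d it was read at 29.8, 29.8 and 20.1 in WT cells and 34.6, 38.7 and 39.7 in PPARγ/+ cells, with log2 changes of -2.04 ± 0.20 (adjusted p = 8.72e-04) and -1.70 ± 0.20 (adjusted p = 6.51e-04). Rrm1, the large subunit, was read at 41.1, 55.5 and 55.8 FPKM in WT_0d and 20.1, 15.9 and 16.9 in WT_5d, the smallest fall of this role in WT cells. Its log2 changes were -1.52 ± 0.15 in WT cells and -1.56 ± 0.14 in PPARγ/+ cells.

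Tyms, thymidylate synthase, went from 7.43 ± 1.53 to 2.03 ± 0.0445 FPKM in WT cells and from 5.81 ± 1.31 to 2.21 ± 0.0558 in PPARγ/+ cells, with log2 changes of -1.80 ± 0.17 and -1.34 ± 0.16. The annotation lists a pseudogene of it, Tyms-ps. Dut, the dUTPase that keeps uracil out of DNA, was read at 16.1, 18.1 and 19.1 FPKM in WT_0d and 4.43, 4.09 and 4.52 in WT_5d, and at 12.6, 9.63 and 10.5 in PPARγ/+_0d and 4.22, 5.29 and 5.23 in PPARγ/+_5d. Its log2 changes were -2.00 ± 0.09 (adjusted p = 1.63e-04) and -1.13 ± 0.13 (adjusted p = 5.90e-04). The counterparts that cells use outside S phase did not fall with these enzymes. Rrm2b, the p53-induced form of the small reductase subunit, stood at 3.25 ± 0.183 FPKM in WT_0d and 4.38 ± 0.509 in WT_5d, and Tk2, the thymidine kinase of mitochondria, at 4.64 ± 0.533 and 5.62 ± 1.30. The ratio of Rrm2 to Rrm2b was 33.8 ± 7.77 in WT_0d and 6.20 ± 1.86 in WT_5d, and 33.7 ± 11.6 and 8.28 ± 1.09 in PPARγ/+ cells. The ratio of Tk1 to Tk2 was 3.93 ± 1.24 and 0.416 ± 0.173 in WT cells and 2.34 ± 0.452 and 0.311 ± 0.0359 in PPARγ/+ cells, so that the order of these kinases turned between the days. These pairs were chosen after the values were seen.

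Uhrf1 and Dnmt1 copy DNA methylation onto the new strand. Uhrf1, which reads hemimethylated sites and brings Dnmt1 to them, was read at 33.9, 40.8 and 45.2 FPKM in WT_0d and 4.18, 4.81 and 3.30 in WT_5d, and at 28.6, 17.6 and 20.6 in PPARγ/+_0d and 3.20, 3.14 and 3.05 in PPARγ/+_5d. It kept 10.3% of its 0d mean in WT cells and 14.1% in PPARγ/+ cells, with log2 changes of -3.26 ± 0.17 (adjusted p = 1.74e-04) and -2.76 ± 0.17 (adjusted p = 5.96e-05). Dnmt1, the methyltransferase, was read at 29.5, 34.1 and 38.6 FPKM in WT_0d and 9.43, 10.6 and 10.1 in WT_5d and kept more, 29.5% and 37.1%, with log2 changes of -1.75 ± 0.11 (adjusted p = 2.49e-04) and -1.41 ± 0.11 (adjusted p = 1.53e-04).

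**Figure D3:**
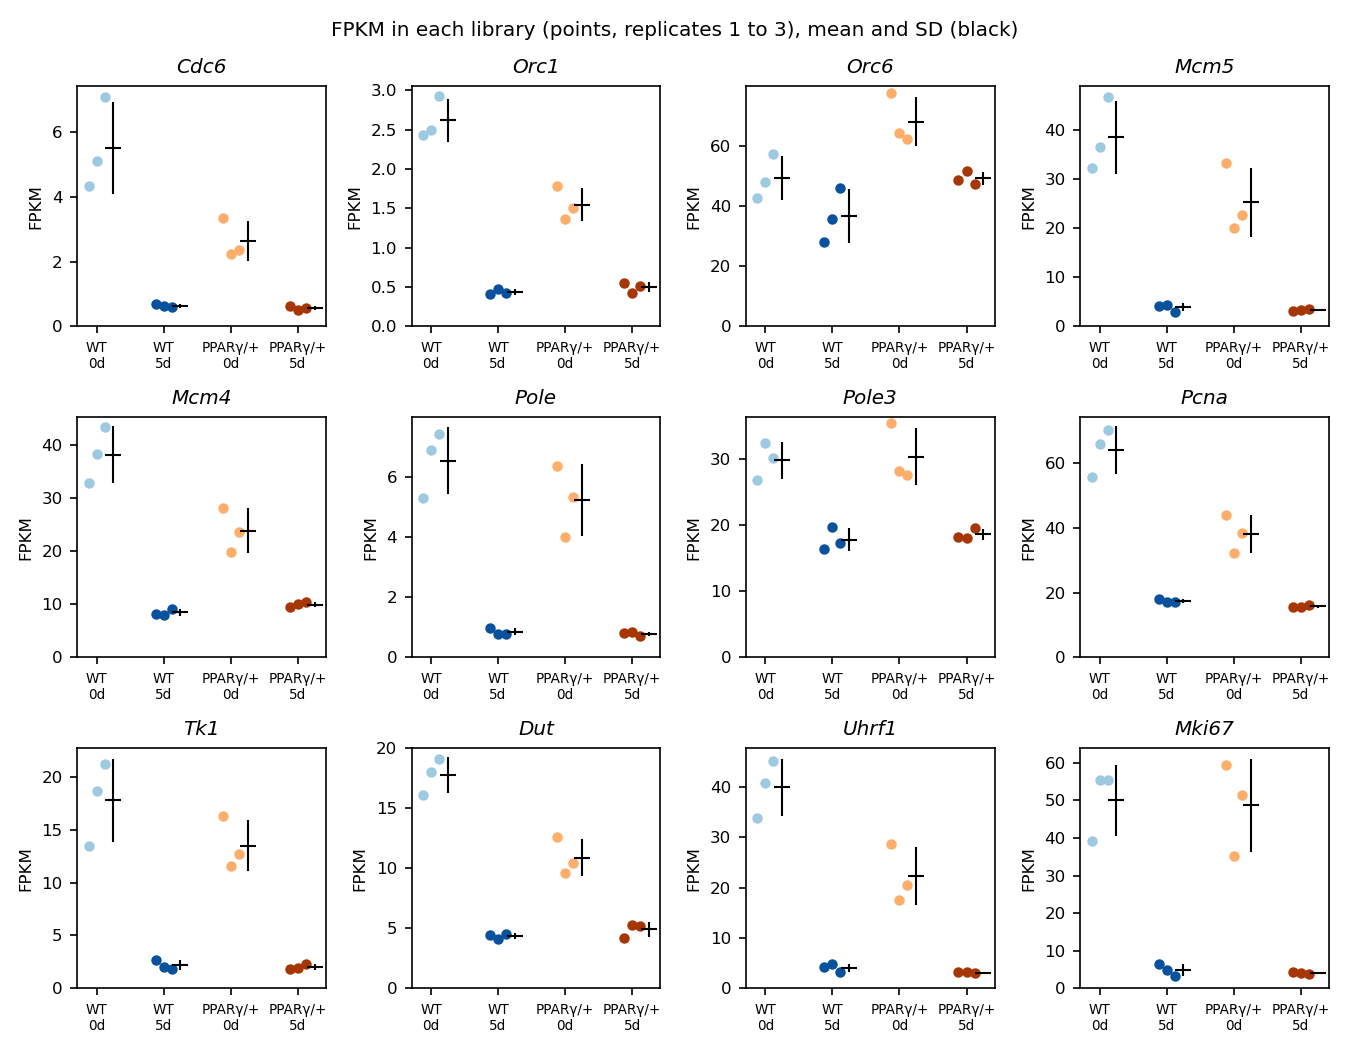
FPKM (vertical axis, from 0, its own scale in each panel) of 11 replication genes and of the proliferation marker Mki67 in each of the 12 libraries, with points for the 3 replicates of each group and a black mark with bar for the mean and SD. Orc6 and Pole3 keep most of their level on 5d, while Cdc6 keeps 11.4% and Uhrf1 10.3% of it in WT cells.

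The order of the levels changed between the days. On 0d in WT cells, 34 of the 52 members had a mean of at least 10 FPKM and the highest were Rrm2, Pold4, Pcna, Rrm1 and Orc6, at 109, 69.1, 64.1, 50.8 and 49.3 FPKM. On 5d, 11 members had at least 10 FPKM and the highest were Pold4, Orc6, Rrm2, Pole3 and Rrm1, at 51.5, 36.7, 26.5, 17.8 and 17.6. The lowest on 5d were Pole, Cdc6, Dna2, Orc1, Mcm10 and Fen1, all under 1 FPKM on average. The 9 members short of 2-fold in both cell types were Orc2, Orc6, Gins3, Pold4, Pole3, Pole4, Rfc1, Rnaseh2a and Rnaseh2c, and Gins4, Pold3 and Rpa3 were short of it in PPARγ/+ cells.

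Before differentiation most replication genes stood lower in the PPARγ/+ cells. Of the 52 members on 0d, 46 had a log2 difference from WT below 0, against 46.1% of all genes tested, with a median of -0.33 where that of all genes was 0.02. At an adjusted p of at most 0.05 and at least 2-fold, over the 12 libraries in one model, only Cdc6 was lower (1.39% of all genes were) and 0 members were higher (0.571%). At that adjusted p with no limit on the fold, 10 members were lower, against 3.37% of all genes, and 0 higher, against 2.20%. The 10 were Cdc6, Dna2, Uhrf1, Pcna, Orc1, Gins1, Dut, Mcm4, Mcm3 and Rpa2. At an unadjusted p of at most 0.05, 28 members were lower, against 10.3% of all genes, and 1 was higher, against 11.0%. The libraries did not overlap for 17 members lower and 1 higher, against 13.1% and 13.7%. The single member higher by either measure was Orc6. The median log2 difference was -0.57 for the licensing genes, -0.59 for the helicase genes, -0.63 for Uhrf1 and Dnmt1, -0.35 for nucleotide supply and -0.29 for the polymerases, and it was -0.18 for the clamp group and -0.15 for the Okazaki group.

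Cdc6 stood at 47.9% of its WT mean in PPARγ/+_0d, a log2 difference of -1.03 ± 0.20 (adjusted p = 0.0146), and the libraries given above do not overlap. Dna2 stood at 51.9% (-0.92 ± 0.19, adjusted p = 0.0197), Uhrf1 at 55.8% (-0.86 ± 0.18, adjusted p = 0.0194), Pcna at 59.7% (-0.75 ± 0.11, adjusted p = 0.0042) and Orc1 at 59.1% (-0.72 ± 0.15, adjusted p = 0.0207), all without overlap of the libraries. Dut, Mcm4, Mcm3 and Gins1 lay between 60.4% and 62.8% of their WT means, with log2 differences of -0.71 ± 0.12 (adjusted p = 0.00735), -0.68 ± 0.13 (adjusted p = 0.013), -0.68 ± 0.15 (adjusted p = 0.0248) and -0.72 ± 0.17 (adjusted p = 0.033). Rpa2 was read at 9.85, 11.0 and 11.5 FPKM in WT_0d and 8.42, 7.10 and 7.47 in PPARγ/+_0d, a log2 difference of -0.49 ± 0.09 (adjusted p = 0.0127). Gins1 was read at 6.70, 6.90 and 9.17 and 5.57, 4.05 and 4.14 FPKM, and Mcm3 at 34.5, 38.7 and 46.8 and 31.4, 20.6 and 23.4. Of the 6 members above 0, Orc6 lay highest, with all 3 PPARγ/+ libraries above all 3 WT libraries and a log2 difference of 0.47 ± 0.16 that did not pass the test (adjusted p = 0.125).

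The libraries of PPARγ/+_0d were not alike. The summed FPKM of the 52 members was 979, 1129.5 and 1249.7 in WT_0d, and 1115 in PPARγ/+_0d replicate 1 against 824 and 887 in replicates 2 and 3, so replicate 1 lay in the range of the WT libraries. Below all 3 WT libraries lay 18 members in replicate 1, 42 in replicate 2 and 40 in replicate 3. The count of 10 became 19 without PPARγ/+_0d replicate 1, 3 without replicate 2, 3 without replicate 3, 6 without WT_0d replicate 2, 2 without WT_0d replicate 3, 16 without WT_5d replicate 3 and 2 in a fit of the 6 libraries of 0d alone, and it was 27 with array weights and 17 by limma voom on recovered fragments. Cdc6 was not called at 2-fold with 1 added to the FPKM, on the 6 libraries alone, or without WT_0d replicate 3 or PPARγ/+_0d replicate 2 or 3, and its log2 difference stayed between -1.20 and -0.83 with any library left out.

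Markers of cycling cells did not differ in the same way on 0d. The 6 proliferation markers Mki67, Ccnb1, Ccna2, Cdk1, Aurkb and Birc5, most of which peak in G2 and mitosis, stood at 86.9% to 111% of their WT means, with a median log2 difference of -0.03 and 0 called, also at an unadjusted p of at most 0.05. Mki67 was read at 39.2, 55.5 and 55.5 FPKM in WT_0d and 59.4, 35.1 and 51.5 in PPARγ/+_0d, and Ccnb1 at 26.9, 34.3 and 29.2 and 35.0, 25.6 and 30.2. The cell types overlap in both genes. The ratio of Pcna to Mki67 within a library, chosen after the values were seen, was 1.42, 1.19 and 1.27 in WT_0d and 0.741, 0.919 and 0.747 in PPARγ/+_0d. The myotube sum was 7.20, 14.0 and 23.4 FPKM in PPARγ/+_0d and 9.88 to 102.9 in WT_0d, and the 4 myoblast markers (Myod1, Myf5, Pax7 and Des) summed to 56.4, 60.5 and 78.2 FPKM in PPARγ/+_0d and 163, 216 and 127 in WT_0d. Of these 4, Myf5 was lower in PPARγ/+_0d (-1.58, adjusted p = 0.00165). Des (-1.41, adjusted p = 0.0801) and Myod1 (-0.86, adjusted p = 0.236) lay below 0 and did not pass. Pax7 went the other way (0.81, adjusted p = 0.0799), with every PPARγ/+_0d library above every WT_0d library, and did not pass either. The part of these marker levels in the difference between the cell types was not tested.

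**Figure D4:**
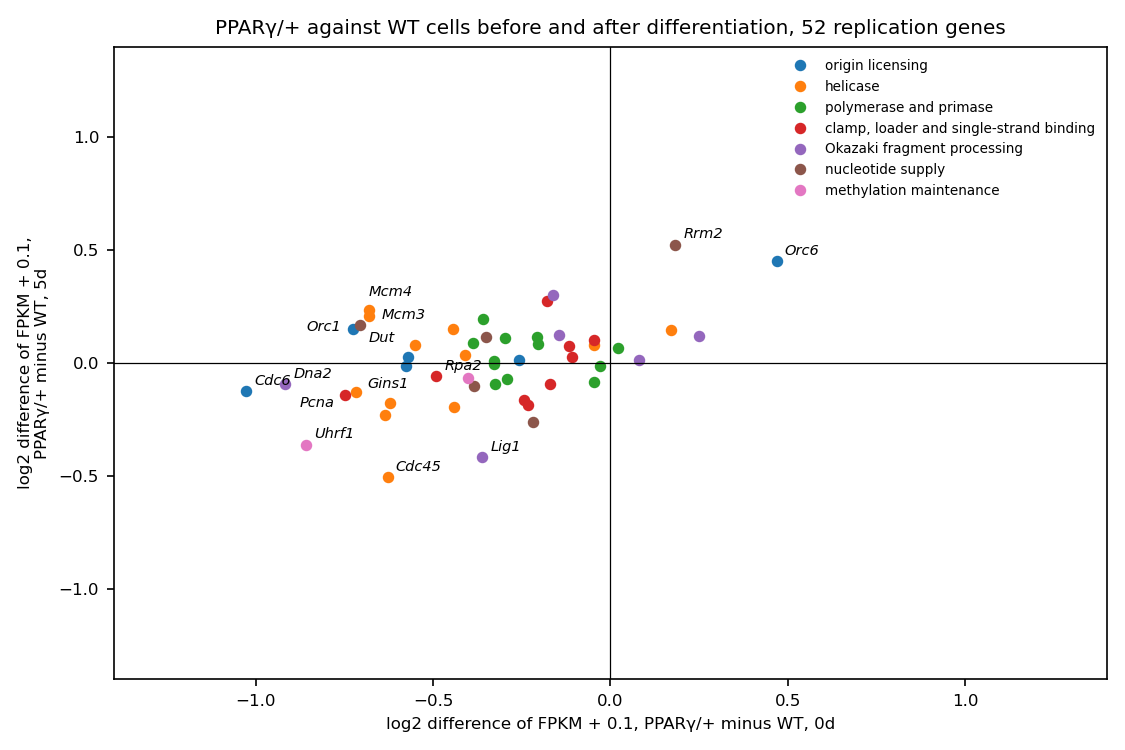
Log2 difference of FPKM + 0.1 between PPARγ/+ and WT cells on 0d (horizontal axis) and on 5d (vertical axis) for the 52 replication genes, coloured by role, with the 10 genes that pass an adjusted p of 0.05 on 0d and 4 others named. Points spread from -1.03 (Cdc6) to 0.47 (Orc6) on 0d and from -0.51 (Cdc45) to 0.52 (Rrm2) on 5d.

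After differentiation no such difference was called. On 5d, 23 members had a log2 difference below 0 and 29 above, against 54.6% of all genes above 0, and the median was 0.02, as for all genes, and turned to -0.02 under median-ratio scaling. By limma, 0 members were called at an adjusted p of at most 0.05, with or without a limit of 2-fold. Of all genes 0.571% were higher and 0.533% lower with that limit, and 0.893% and 0.738% without it. At an unadjusted p of at most 0.05, 3 members were higher (Orc6, Rpa3 and Rrm2) and 2 lower (Cdc45 and Lig1), against 7.87% and 7.48% of all genes. By limma voom on recovered fragments 0 were called. With array weights 9 were higher and 10 lower at the adjusted p, and 1 was higher without WT_5d replicate 3. The standard errors of the members ran from 0.08 to 0.22 on the log2 scale. Of the 52 differences 50 lay within 0.5 of 0, a count for which no share of all genes was taken.

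The members at the ends on 5d were Rrm2 and Cdc45. The libraries of Rrm2 given above stood at 26.5 FPKM on average in WT_5d and 37.7 in PPARγ/+_5d without overlap, a log2 difference of 0.52 ± 0.22 (adjusted p = 0.285). Cdc45 was read at 4.38, 4.92 and 4.07 FPKM in WT_5d and 2.53, 3.74 and 3.15 in PPARγ/+_5d, also without overlap, a log2 difference of -0.51 ± 0.17 (adjusted p = 0.182). Neither passed the test. Libraries did not overlap for 7 members higher and 7 lower in PPARγ/+ cells, against 10.2% and 8.31% of all genes. Cdc6 stood at 90.7% of its WT mean on 5d, Pcna at 90.7%, Dna2 at 92.2%, Mcm4 at 118% and Dut at 113%.

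Whether the change over the 5 days differed between the cell types was tested as an interaction over all 12 libraries, where a value above 0 means a smaller fall in PPARγ/+ cells. It lay above 0 for 45 of the 52 members, against 48.8% of all genes, with a median of 0.33 where that of all genes was -0.01. At an adjusted p of at most 0.05, Mcm4 (0.91 ± 0.18, adjusted p = 0.0498) and Dut (0.87 ± 0.17, adjusted p = 0.0443) were above 0, against 0.583% of all genes, and 0 members were below, against 0.178%. At an unadjusted p of at most 0.05, 16 were above, against 6.82% of all genes, and 0 below, against 5.18%. The interaction of Mcm4 and Dut combines a lower start in PPARγ/+_0d, shown above, with 5d values of 8.16, 8.04 and 9.11 against 9.42, 10.1 and 10.3 FPKM for Mcm4 and 4.43, 4.09 and 4.52 against 4.22, 5.29 and 5.23 for Dut. Next to them stood Cdc6 (0.90 ± 0.28, adjusted p = 0.211), Mcm3 (0.89 ± 0.21, adjusted p = 0.0983) and Orc1 (0.87 ± 0.22, adjusted p = 0.113), which did not pass. Both calls sit at the threshold: 0 members passed under median-ratio scaling, with the replicate number as a block, with 0.01 added to the FPKM, without a filter or by limma voom, and 20 with array weights, and the count was 0 when any of WT_0d replicate 2 or 3, WT_5d replicate 1 or 2, PPARγ/+_0d replicate 2 or 3, or PPARγ/+_5d replicate 2 or 3 was left out. It was 1 without WT_0d replicate 1 or PPARγ/+_5d replicate 1, and 3 without PPARγ/+_0d replicate 1.

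A further 50 genes of replication and nucleotide metabolism, none of them members, were read as the rest of the pathway. Of these 33 fell and 0 rose in WT cells, against 7.53% and 8.94% of all genes tested. In PPARγ/+ cells 29 fell and 0 rose, against 6.06% and 9.11%. At an unadjusted p of at most 0.05 with no limit on the fold, Rrm2b was higher in WT cells and Rrm2b and Tk2 were higher in PPARγ/+ cells. On the scale of log2(FPKM + 0.1) the 3 largest falls in WT cells were those of Pclaf, a binding partner of PCNA (-3.50 ± 0.21, adjusted p = 2.18e-04), Asf1b, a histone chaperone (-3.24 ± 0.19, adjusted p = 2.13e-04), and Top2a, the topoisomerase that untangles sister chromatids (-3.20 ± 0.20, adjusted p = 2.32e-04). By the share of the mean left, Exo1 (8.97%) and Ticrr (9.95%), both low genes, fell more in WT cells than Asf1b (10.3%) and Top2a (10.8%). In PPARγ/+ cells the 3 largest were Asf1b (-3.76 ± 0.14, adjusted p = 1.60e-05), Top2a (-3.24 ± 0.15, adjusted p = 2.41e-05) and Pclaf (-3.02 ± 0.17, adjusted p = 4.75e-05). Those that were not below 0 in WT cells, named after their values were seen, were Orc3, a core subunit of the origin recognition complex (0.03 ± 0.10, adjusted p = 0.811), Top1, the topoisomerase that relaxes supercoils (0.12 ± 0.14, adjusted p = 0.537), Dguok and Tk2, nucleoside kinases of mitochondria (0.16 and 0.25, adjusted p = 0.497 and 0.325), and Rrm2b (0.41 ± 0.12, adjusted p = 0.0378). Between the cell types 0 of the 50 were called on 0d, on 5d or in the interaction. The lower level on 0d was nonetheless seen in this list too, in the same libraries, with a median of -0.28. The summed FPKM of the 50 was 533, 606 and 644 in WT_0d and 581, 467 and 507 in PPARγ/+_0d. Replicate 1 of PPARγ/+_0d thus again lay in the range of the WT libraries. Below 0 lay 43 of 50, against 46.1% of all genes. At an unadjusted p of at most 0.05, 23 were lower and 3 higher, against 10.3% and 11.0% of all genes. Without overlap 20 were lower, against 13.1%, and 5 were higher, against 13.7%. The interaction lay above 0 for 42 of the 50, against 48.8% of all genes, with a median of 0.29. At that unadjusted p 11 were above 0, against 6.82%. At an adjusted p of at most 0.05 and any fold, 2 of the 50 were lower in PPARγ/+_0d, near the 3.37% of all genes, and 1 was higher in PPARγ/+_5d, against 0.893%. The 2 were Chaf1b (-0.90 ± 0.20, adjusted p = 0.0241) and Nasp (-0.64 ± 0.15, adjusted p = 0.0281), both histone chaperones. The 1 on 5d was Samhd1, which breaks down deoxynucleotides outside S phase, at 11.3, 11.6 and 13.3 FPKM against 6.63, 6.43 and 8.21 in WT_5d (0.76 ± 0.11, adjusted p = 0.00699).

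On 5d the replication genes summed to similar levels in libraries whose myotube markers differed widely. The members summed to 375, 383 and 366 FPKM in WT_5d, where the myotube sum was 3973, 3045 and 896, and to 382, 397 and 403 in PPARγ/+_5d, where it was 923, 1056 and 1086. The 6 libraries thus lay within a narrow range of member sums over a wide range of myotube sums. This holds for the sum and not for each member. Over WT_5d replicates 1 to 3, Orc6 was read at 28.1, 35.8 and 46.2 FPKM and Rrm2 at 29.8, 29.8 and 20.1. On 5d Mki67 was read at 6.43, 4.89 and 3.31 FPKM in WT cells and 4.23, 3.97 and 3.85 in PPARγ/+ cells, and all 6 proliferation markers fell in both cell types, to 6.21% to 15.2% of the 0d mean in WT cells and 6.07% to 18.2% in PPARγ/+ cells. The medians of the members, given above, were 25.6% and 35.4%. The ratio of Pcna to Mki67 was 2.80, 3.50 and 5.14 in WT_5d and 3.65, 3.93 and 4.20 in PPARγ/+_5d, above every 0d library.

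**Figure D5:**
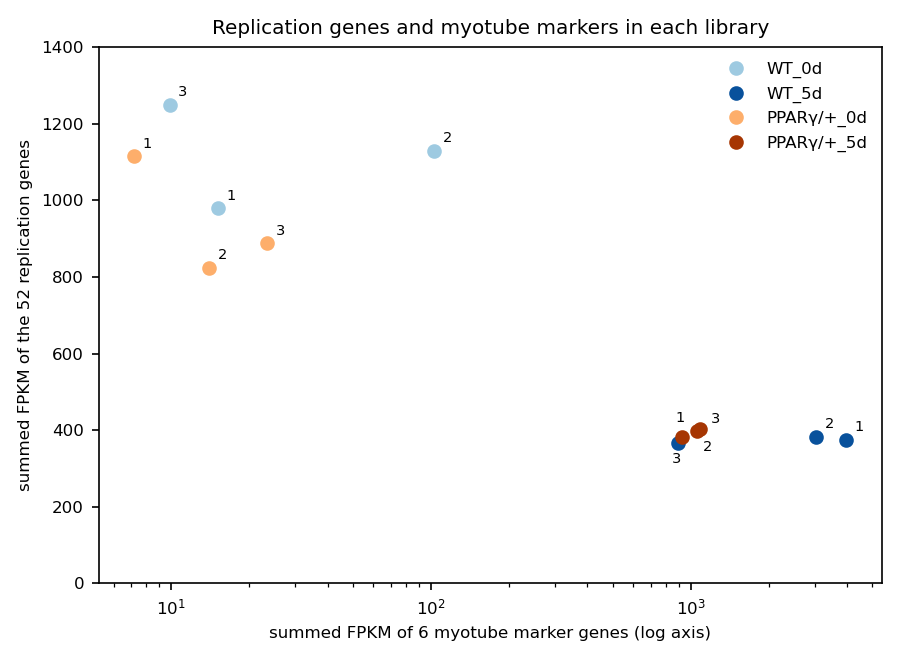
Summed FPKM of the 52 replication genes (vertical axis, from 0) against the summed FPKM of 6 myotube markers (horizontal log axis) in each of the 12 libraries, coloured by group and numbered by replicate. On 5d the member sum lies between 366 and 403 in all 6 libraries, and on 0d between 824 and 1249.7.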

How the data were processed

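RNA of 12 C2C12 libraries (TruSeq RNA v2) was sequenced by a company for the authors, whose methods trim reads with Trim Galore, align them with STAR, count them per gene with HTSeq and give the deposited FPKM values, 1 column per library. The methods name Ensembl GRCm38.83 as reference and the submitters' processing notes name mm9. A deposited table of log2(FPKM + 1) holds the same libraries and was not used.

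Genes with at least 0.1 FPKM in at least 3 of 12 libraries were tested (18023), on log2(FPKM + 0.1) with limma 3.58.1 (eBayes with trend) in R 4.3.3, with Benjamini-Hochberg adjustment. A fold on this scale understates the change of low genes. Days were compared within the 6 libraries of a cell type, at the study's thresholds of an unadjusted p of 0.05 and 2-fold. Cell types and the interaction were compared in a model of all 12 libraries, at an adjusted p of 0.05, with at least 2-fold for the cell types. Tables and plots were made in Python 3.11.15 with numpy 2.4.6, pandas 2.3.3 and matplotlib 3.10.9. The steps were tested on simulated data.

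Fragment numbers were recovered by multiplying FPKM by a gene length and the library's total. Of 27138 genes read, 21058 gave whole numbers (within 0.001) at the GRCm38 exonic length and 6079 at an inferred length, while 1 did not. Among the members these were 38 and 14. Totals were 18581300 to 26073154 mapped fragments. The lengths also flag exons that members share with neighbours, which counting without strand could not separate; strand is not stated. Any pair of libraries differed at 21594 genes or more.

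The members and gene lists were chosen with earlier results of these data known. Named were all members by role, the 3 largest called changes of the other replication genes per comparison, Pparg and marker genes. Values in every library are given for the largest and smallest WT change of each role and for members called between cell types, and other members were added after their values were seen. Alternatives were other values added to the FPKM, filters, scalings, weights, call rules and fits, limma voom on recovered fragments, and each library left out.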

Additional observations from a re-analysis of the deposited data

Results flagged for a closer look

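The interaction test in limma over all 12 libraries passed an adjusted p of 0.05 for 2 replication genes, and the calls were lost in most other settings: 0 members passed under median-ratio scaling, with the replicate block, by limma voom, with 0.01 added to the FPKM, without a filter, or in 8 of the 12 fits that leave out a library. Mcm4, a subunit of the helicase ring, had an interaction of 0.91 on the log2 scale (adjusted p = 0.0498), with 22.1% of the 0d mean left on 5d in WT cells and 41.7% in PPARγ/+ cells. Over the other settings its adjusted p ran from 0.0014 to 0.144. Dut, the dUTPase, had an interaction of 0.87 (adjusted p = 0.0443), with 24.5% left in WT cells and 45.1% in PPARγ/+ cells, and its adjusted p ran from 0.00141 to 0.131 over the other settings.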

How the results depend on the processing

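All 52 members lay below 0 from 0d to 5d in both cell types in every setting run (51 of 51 tested with a filter at 1 FPKM), and leaving out any library gave 42 to 43 falls in WT cells and 39 to 40 in PPARγ/+ cells. With 1 added to the FPKM the members' medians were -1.64 (WT) and -1.21 (PPARγ/+), with 40 and 35 falls. Median-ratio scaling moved the median of all genes in WT cells from -0.08 to 0.02, and relative to it the members' median went from -1.84 to -1.82.

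The comparison of the cell types on 0d depended on the settings. The count lower at 2-fold was 0 with 1 added to the FPKM or in the 6 libraries of that day, 10 at any fold, and 0 to 3 with a library left out. The count at any fold was 27 with array weights, 17 by limma voom, 2 in the 6 libraries of that day and 2 to 19 with a library left out (16 without WT_5d replicate 3), while the median ran from -0.48 to -0.21. Why it moved was not tested. The interaction count of 2 was 0 with at least 2-fold and an unadjusted p, with 0.01 added to the FPKM, without a filter, under median-ratio scaling or by limma voom, 1 with 1 added, 20 with array weights, and 0 to 3 with a library left out.

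Of the other replication genes, 1 was higher in WT and 1 in PPARγ/+ cells at an adjusted p and any fold, 2 were lower on 0d and 1 was higher on 5d. Their count lower on 0d at 2-fold, 0 as reported, was 1 with array weights and 0 to 1 with a library left out. Their interaction count, also 0 as reported, was 13 with array weights and 0 to 1 with a library left out.

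Libraries of the same replicate number did not deviate together (r = -0.068 to 0.083 over 18 pairs, and -0.122 to 0.102 over 36 pairs of unlike number). With the replicate number as a block, 43 and 40 members fell, 1 was lower on 0d and the interaction count was 0. The groups of 3 libraries limit what could be called between the cell types, and low members such as Fen1 rest on 9 to 63 fragments.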
